A study of Mus musculus with 45 samples.

Results

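The transcriptome of microglia was compared between the embryonic stage E14.5, in mid-gestation, and postnatal day 3 (P3). The comparison used 3 libraries of each age, 6 of the 45 RNA-seq libraries of a mouse brain series that also holds the macrophages of the meninges (mMΦ) and of the perivascular spaces (pvMΦ), and covered every gene of the count table. Libraries were assigned by their labelled population and age, with no use of a measured value. All mice were C57BL/6J and carried the genotype Cx3cr1GFP/wt, in which a green fluorescent protein gene stands in 1 of the 2 alleles of the fractalkine receptor gene Cx3cr1. No treatment was given, both ages carried the same genotype, and the series describes its libraries as coming from individual mice. The cells were sorted, and cDNA was amplified from 500 pg of RNA. The E14.5 libraries were replicates 1, 2 and 3. The P3 libraries were replicates 2, 3 and 4, and P3 replicate 4 was the only one of the 6 from the batch labelled S276.

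Microglia are the resident macrophages of the brain parenchyma. They descend from yolk sac progenitors, enter the brain in the embryo, and multiply there while the brain grows. They engulf dying cells and surplus synapses, for which complement C1q and the receptor Trem2 with its adaptor Tyrobp are known components, and they break down what they take up in lysosomes.

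The 6 libraries held 17308547 to 21254533 counted reads. Across 9169 genes, the Pearson correlation of log2 CPM was 0.948 to 0.972 among the E14.5 libraries and 0.805 to 0.887 among the P3 libraries. P3 replicate 3 correlated at 0.895 to 0.913 with the E14.5 libraries, above its values with the other P3 libraries (0.842 and 0.887). P3 replicate 2 held 3.69% of its counts in mitochondrial genes, against 0.652% to 1.26% in the other 5. The common dispersion of counts was 0.269 at E14.5 and 0.908 at P3, so P3 estimates carried the larger error. By Xist and Y-linked RNA, each age held 2 libraries of female type and 1 of male type.

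The labelled cell type was checked against its markers. Every library held high levels of Csf1r, the receptor for macrophage growth factor (3872 to 10183 CPM, read counts relative to the TMM-scaled library total), and of the purinergic receptor P2ry12 (2447 to 5474 CPM). Of 20 defining markers of other brain and blood cells, 15 stayed under 6 CPM in every library. The exceptions were Mbp, Pecam1, Dcn, Hba-a1 and Hbb-bs. The border macrophage markers Cd163 and Lyve1 stayed at or under 0.666 and 5.91 CPM, while Pf4, Ms4a7 and F13a1 reached 17.1, 16.8 and 17.3 CPM. The mannose receptor gene Mrc1, also a border macrophage marker, was at 76.4 to 316 CPM.

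The question of the comparison was which genes change in microglia between mid-gestation and the first days after birth. Of 17064 genes tested with edgeR's quasi-likelihood test and Benjamini-Hochberg adjustment (adjusted p under 0.05), 185 were called (1.08%). Of these, 140 were higher at P3 (0.82% of genes tested) and 45 were lower (0.264%). The higher genes with the most reads included the C1q chains C1qb and C1qc, the protease inhibitor Cst3, and lysosomal enzymes. The lower genes included the chemokines Ccl3 and Ccl4, early response regulators such as Nr4a1 and Btg2, and the glycolytic enzymes Ldha, Pkm and Aldoa. The median log2 fold change over all genes tested was 0. Log2 fold changes were fitted with a term for the batch S276, and CPM values were not adjusted for it. The 2 can therefore differ. The mean CPM of Trem2 rose 2.91-fold where its fitted log2 fold change was 1.81, and that of Apoe 2.01-fold where the fitted value was 1.44. In bulk libraries, fewer cells with a transcript and less of it per cell cannot be told apart. The count depended on single libraries. It was 118, 91 and 90 without E14.5 replicate 1, 2 or 3, 160 and 213 without P3 replicate 2 or 3, and 106 without P3 replicate 4. Within the batch S232 alone, 114 genes were called. The 185 genes kept their sign wherever they were tested in all 18 refits.

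**Figure D1:**
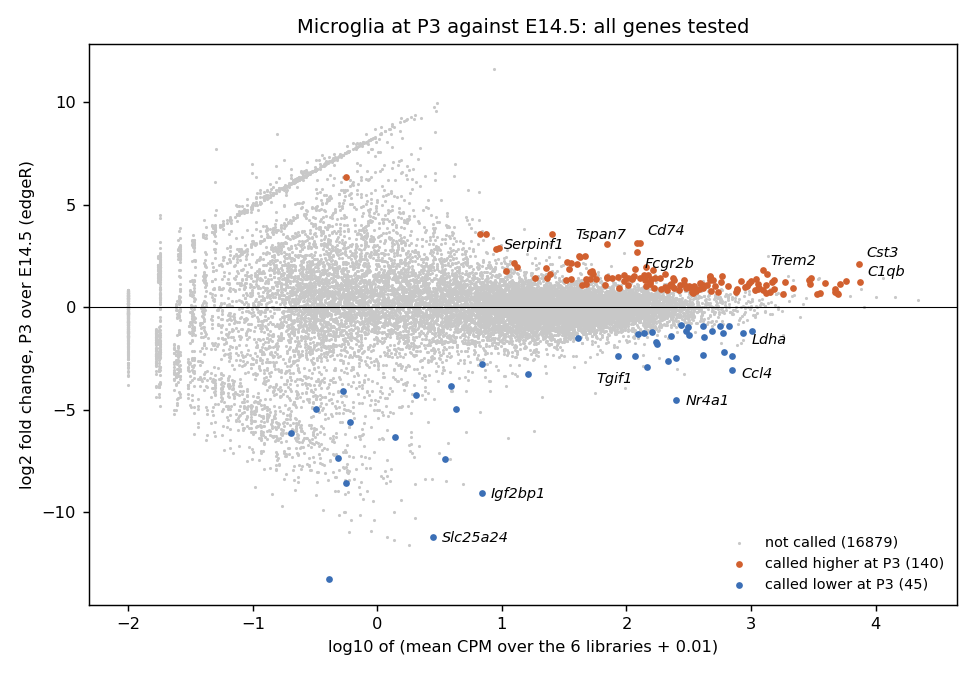
Log2 fold change of each of the 17064 genes tested (vertical axis, P3 over E14.5) against its mean level over the 6 libraries (horizontal axis, log10 CPM); orange points mark the 140 genes called higher at P3, blue points the 45 called lower. Higher calls lie mostly at high levels with modest changes, and the largest negative values, such as that of Slc25a24, lie at low levels.

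Genes of complement and engulfment were among those that rose. Of 32 genes tested in this list, 8 were higher and 2 lower, and the median log2 fold change was 0.45. Over all 17064 genes tested, 0.82% were called higher and 0.264% lower. DESeq2 called 9 higher and 2 lower in the list, and limma 9 and 0. Over all genes tested, DESeq2 called 399 higher and 234 lower, and limma 250 and 171. These totals also apply to the lists that follow. C1qa, C1qb and C1qc encode the 3 chains of C1q, the starter of the classical complement pathway. C1qb was at 5365, 4850 and 4907 CPM at E14.5 and at 12229, 8970 and 8880 CPM at P3. All P3 libraries lay above all E14.5 libraries, and the log2 fold change was 1.24 (SE 0.13, adjusted p = 4.8e-08). C1qc and C1qa rose by 1.26 and 1.11 on the log2 scale, also without overlap. Trem2, a lipid-sensing receptor of microglia, was at 748, 590 and 585 CPM at E14.5 and at 2242, 1640 and 1706 CPM at P3. The fitted log2 fold change was 1.81 (SE 0.23, adjusted p = 4.7e-06). Its signalling adaptor Tyrobp rose by 1.33, from 957 to 1151 CPM to 1344 to 2658 CPM.

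The Fc receptors, which bind antibody-coated material, rose with them. Fcgr2b, the inhibitory receptor, had the largest increase among the called members, from 35.2, 36.5 and 35.1 CPM to 129, 229 and 265 CPM. Its libraries did not overlap, and the log2 fold change was 2.71 (SE 0.21, adjusted p = 9.8e-11). The activating receptors Fcgr3 and Fcgr1 rose by 1.22 and 0.92. The 2 list members that fell were low in these cells: the scavenger receptor Cd36 went from 7.99 to 13.8 CPM to 2.03 to 2.64 CPM, and the phosphatidylserine receptor Timd4 had 77 counts at E14.5 and 1 at P3. That is a ratio of 72.3 with a 95% counting interval of 12.6 to 2890, which covers counting error only, and the E14.5 library with 0 counts overlapped P3. The receptor tyrosine kinases that recognise apoptotic cells through bridging proteins did not pass the test. Mertk was at 89.3 to 196 CPM and 133 to 265 CPM, and Axl at 119 to 172 CPM and 49.1 to 226 CPM. Leaving out single libraries gave 6 to 10 higher calls. The Cd36 call was lost without each library other than E14.5 replicate 1, and the Timd4 call without E14.5 replicate 2, with adjusted p up to 0.287 and 0.0794.

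The start sites of called engulfment genes are shown because the genes rose together and because PU.1, the lineage factor of myeloid cells encoded by Spi1, binds a core written GAGGAA. Spi1 itself was at 385 to 399 CPM and 313 to 545 CPM and did not pass the test. Windows of 300 bases, from 250 before to 50 after the start, were read from RefSeq (GRCm38.p6). Of 8 called higher genes of the list, 6 had a window, and 5 of those held the core on either strand (C1qb, C1qc, Fcgr1, Fcgr3 and Trem2). Of 27025 genes with a window, 31.3% held it in at least 1 of their windows, counted in the same way. Capitals mark the match. C1qb is on the minus strand at chr4:136886151-136886450, C1qc on the minus strand at chr4:136892865-136893164, and Trem2 on the plus strand at chr17:48346151-48346450.
C1qb: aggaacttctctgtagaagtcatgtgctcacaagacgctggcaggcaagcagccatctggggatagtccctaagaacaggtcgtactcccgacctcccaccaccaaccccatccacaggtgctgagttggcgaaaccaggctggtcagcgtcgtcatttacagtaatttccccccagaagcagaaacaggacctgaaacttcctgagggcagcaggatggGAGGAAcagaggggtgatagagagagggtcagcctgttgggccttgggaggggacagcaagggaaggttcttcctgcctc
C1qc: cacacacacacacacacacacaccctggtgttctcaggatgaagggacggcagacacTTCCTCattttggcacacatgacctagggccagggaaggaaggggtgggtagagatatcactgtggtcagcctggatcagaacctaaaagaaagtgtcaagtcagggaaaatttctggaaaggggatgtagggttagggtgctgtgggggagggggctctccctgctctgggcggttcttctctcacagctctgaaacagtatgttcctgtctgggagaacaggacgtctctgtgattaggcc
Trem2: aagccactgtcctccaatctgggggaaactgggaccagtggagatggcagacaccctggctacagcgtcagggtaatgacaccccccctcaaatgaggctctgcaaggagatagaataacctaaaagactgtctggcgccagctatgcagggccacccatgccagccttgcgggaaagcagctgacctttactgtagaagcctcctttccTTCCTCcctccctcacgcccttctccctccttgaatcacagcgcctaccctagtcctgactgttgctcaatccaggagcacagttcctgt
Each of the 3 windows held 1 match. A match of 6 letters is a description of the sequence and not a binding site.

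Lysosomal genes gave the most calls of the 40 lists examined. Of 40 genes tested, 13 were higher and none lower at the adjusted threshold, where 0.82% and 0.264% of all genes tested were. Without overlap, 23 were higher, where 8.26% of all genes tested were. The median log2 fold change of the list was 0.64. Cd68, a lysosomal membrane glycoprotein of macrophages, was at 590, 584 and 707 CPM at E14.5 and 1068, 1642 and 1432 CPM at P3. This was a log2 fold change of 1.30 (SE 0.14, adjusted p = 1.2e-07). The proteases Ctsf and Ctsl rose by 1.31 and 1.17. Npc2, the carrier that moves cholesterol out of the lysosome, rose by 1.27, from 528 to 585 CPM to 956 to 1265 CPM.

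The called lysosomal genes with the most reads had smaller changes. The protease Lgmn was at 3990, 3517 and 3993 CPM and then at 4400, 6856 and 6882 CPM, a log2 fold change of 0.70 (SE 0.17, adjusted p = 0.021). Ctss went from 3232 to 3834 CPM to 3983 to 7827 CPM, with a log2 fold change of 0.87. P3 replicate 2 was the lowest P3 library for both. Ctsa, Ctsz, Hexa, Man2b1 and Grn were also called. The main cathepsins Ctsb and Ctsd did not pass the test (log2 fold change 0.49 and 0.48), with Ctsb at 11481 to 13285 CPM and 12166 to 18812 CPM. The lysosomal calls moved with single libraries: the higher ones numbered 7, 7 and 8 without E14.5 replicate 1, 2 or 3, 16 without P3 replicate 2, 9 without P3 replicate 3 (with 1 lower) and 7 without P3 replicate 4. For Lgmn the call held only without P3 replicate 2, and for Ctss only without P3 replicate 2 or 3, with adjusted p up to 0.216 and 0.667.

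The promoter of Ctsa is shown for the lysosomal group, because the regulators Tfeb and Tfe3 bind a motif of lysosomal promoters (CLEAR) whose core was searched as TCACGTG. Of 13 called lysosomal genes, 11 had a RefSeq window, and 2 held the core (Ctsa and Lgmn), where 4.3% of all genes with a window did. Tfeb was at 32.6 to 35.2 CPM and 17.7 to 39.8 CPM and did not pass the test. Of the 2 windows of Ctsa, the one with the most matches is shown. It lies on the plus strand at chr2:164833523-164833822. Capitals mark its 2 stretches with the core, each of which reads the same on both strands.
Ctsa: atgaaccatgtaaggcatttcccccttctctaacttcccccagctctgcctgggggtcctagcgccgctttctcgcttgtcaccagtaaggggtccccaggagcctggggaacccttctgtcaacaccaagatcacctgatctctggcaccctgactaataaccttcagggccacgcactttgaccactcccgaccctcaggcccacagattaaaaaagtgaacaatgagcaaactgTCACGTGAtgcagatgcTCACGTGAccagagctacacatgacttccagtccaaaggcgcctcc

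Identity genes of microglia were 6 higher and 0 lower of 24 tested, with a median log2 fold change of 0.69. Over all genes tested, 0.82% were called higher and 0.264% lower. Cst3, which encodes the secreted cathepsin inhibitor cystatin C, was at 3615, 3056 and 3128 CPM at E14.5 and at 13603, 10660 and 10162 CPM at P3. The fitted log2 fold change was 2.12 (SE 0.24, adjusted p = 2.8e-07), with no overlap. The lectin Siglech rose from 674 to 723 CPM to 1163 to 1862 CPM, a log2 fold change of 1.36. The crystallin family gene Crybb1 rose from 288 to 439 CPM to 814 to 853 CPM, the Fc receptor-like gene Fcrls by 0.62 and the purinergic receptor P2ry13 by 0.92. Trem2 is also a member.

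The genes most used to define microglia did not pass the test. P2ry12 was at 2447, 2642 and 2643 CPM and then at 2865, 5474 and 3723 CPM (log2 fold change 0.59, adjusted p = 0.54). Tmem119, a membrane protein of mature microglia, was at 644 to 688 CPM and 784 to 1369 CPM (0.55, adjusted p = 0.69). Sall1, which maintains the microglial state as a transcription factor, had 118 to 140 CPM and 224 to 241 CPM (0.72, adjusted p = 1). For these 3 and for Cx3cr1 and the matrix glycoprotein Sparc, all P3 libraries lay above all E14.5 libraries, as for 17 of the 24 members. The same held for 8.26% of all genes tested. P3 replicate 3 was the highest of the 6 libraries for P2ry12, Tmem119 and Cx3cr1. By unadjusted p under 0.05, 15 members were higher, where 1500 of all 17064 genes tested passed in either direction. The identity calls numbered 3 without each E14.5 library in turn: P2ry13 and Fcrls lost the call without each of them and without P3 replicate 3, Siglech without E14.5 replicate 1 or 2, and Crybb1 without replicate 3, with adjusted p up to 0.375, 0.219, 0.0589 and 0.0577.

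**Figure D2:**
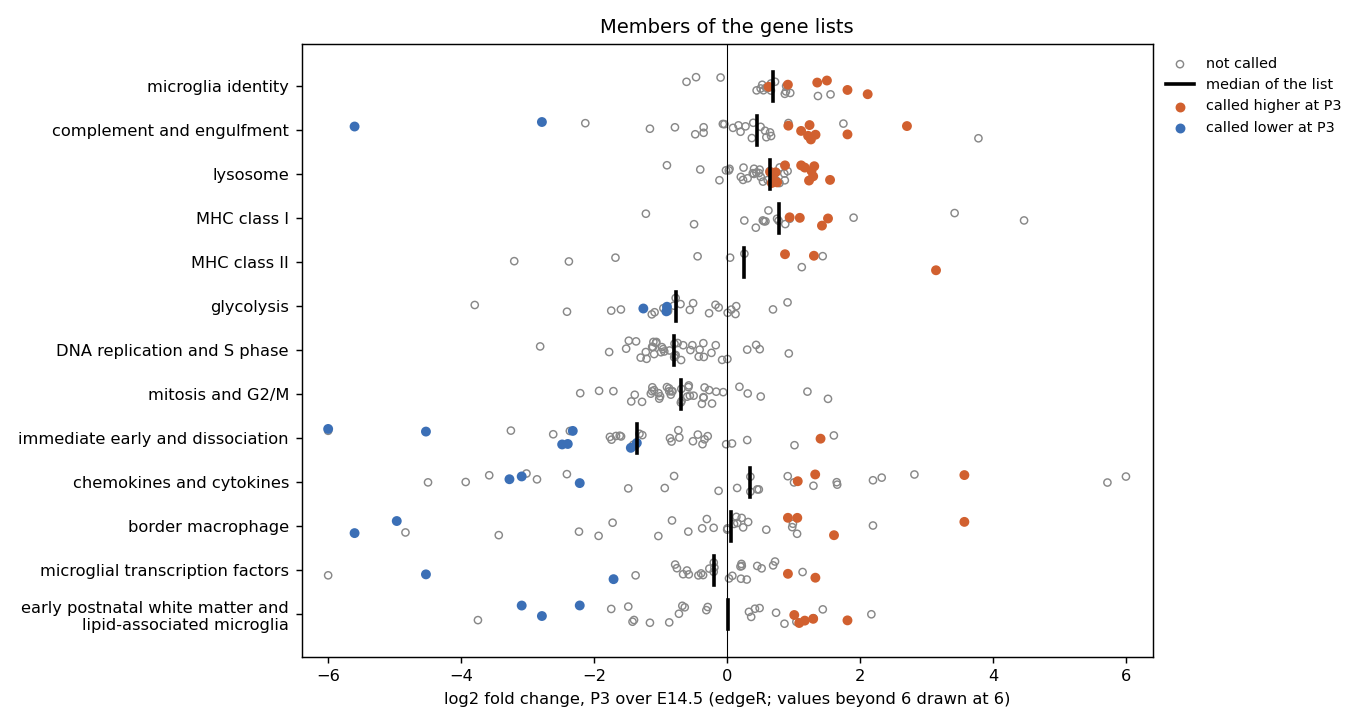
Log2 fold change (horizontal axis, P3 over E14.5) of the members of 13 gene lists (rows); each point is a gene, filled where called, and the bar is the median over tested members. The 13 lysosomal and 6 identity calls all lie to the right, the 3 glycolytic calls to the left, and none of the S phase or mitosis genes is filled.

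By edgeR, antigen presentation genes of both classes were among the higher genes. Cd74, the invariant chain of MHC class II, was at 30.6, 24.2 and 27.6 CPM at E14.5 and at 207, 284 and 200 CPM at P3. This was a log2 fold change of 3.14 (SE 0.60, adjusted p = 0.0021). The class II peptide-binding chain H2-Ab1 stayed at 18.2 to 29.7 CPM and 18.2 to 27.6 CPM, with overlap and a log2 fold change of 0.05. Of 11 class II genes tested, Cd74, H2-DMb1 and Ctss were called higher and none lower. DESeq2 called 3 higher and 1 lower, and limma called 0, so Cd74 had no call by limma. Of 19 class I genes tested, 4 were higher and none lower, with a median log2 fold change of 0.77. DESeq2 called 6 of them higher and limma 1. Over all genes tested, edgeR called 0.82% higher and 0.264% lower. B2m, the shared light chain, went from 1567, 1605 and 1745 CPM to 2106, 2718 and 3200 CPM, a log2 fold change of 0.94 (SE 0.23, adjusted p = 0.024). H2-D1, H2-K1 and H2-T23 rose by 1.52, 1.43 and 1.09. These heavy chain genes are related in sequence, so some reads may be shared among them. P3 replicate 4, of the other batch, was the highest library for all 4 class I genes. Without it, the calls of B2m, H2-T23 and H2-DMb1 were lost, as they were without each E14.5 library (adjusted p up to 0.442, 0.61 and 0.637), and H2-D1 and H2-K1 kept a log2 fold change of at least 1.08 and 1.10 in every refit. Of 35 interferon response genes, edgeR called Ifi27l2a higher and Ifi203 lower, and the list's median was 0.32. DESeq2 called 3 higher and 4 lower, and limma 0. Ifi203 had 25 counts at E14.5 and 0 at P3 (at least 7.82-fold lower). The Ifi203 call was lost without E14.5 replicate 2 or P3 replicate 4 (adjusted p up to 0.0797), and the Ifi27l2a call in 5 of 6 leave-one-out fits, all but that without P3 replicate 3 (up to 0.321).

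Among the 15 genes with the largest increase, several are immune receptors. Clec4a3 and Clec4a1, lectins of myeloid cells, rose by 3.10 and 2.83. Clec4a3 was at 11.8, 16.4 and 19.4 CPM at E14.5 and 97.1, 129 and 146 CPM at P3 (SE 0.31, adjusted p = 2.6e-08). Tnfrsf17, a receptor for B cell survival factors, went from 0.809 to 4.36 CPM to 6.07 to 25.9 CPM. The tetraspanin gene Tspan7 went from 36.0, 19.9 and 18.8 CPM to 177, 238 and 234 CPM, a log2 fold change of 3.14 (SE 0.28, adjusted p = 2.6e-09). Pmp22, a membrane protein best known from peripheral myelin, was at 11.8, 16.2 and 13.3 CPM and then at 82.5, 95.5 and 60.3 CPM. Its log2 fold change was 2.51 (SE 0.19, adjusted p = 2.8e-11), the smallest error of these 15 genes.

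The remaining genes of largest increase differ in function. Serpinf1, which encodes a secreted antiangiogenic factor, rose by 2.48, and the sulfotransferase genes Chst7 and Sult1a1 by 2.22 and 3.58. Sult1a1 was at 0, 0.666 and 2.52 CPM at E14.5 and 6.53, 11.9 and 18.3 CPM at P3. Its log2 fold change ran from 3.00 without E14.5 replicate 1 to 5.25 without E14.5 replicate 3. Angptl7, an angiopoietin-like secreted protein, had the largest fitted value, 3.59, but also the widest P3 libraries: 31.0, 4.33 and 5.80 CPM, against 0.0454 to 2.43 CPM at E14.5. Without P3 replicate 2 its log2 fold change was 2.40, and the call held only without P3 replicate 3. Cib2, a calcium-binding protein, rose by 2.17, and its call held only without P3 replicate 3 or 4. The interferon-inducible Ifi27l2a rose by 2.46 and kept its call only without P3 replicate 3.

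**Figure D3:**
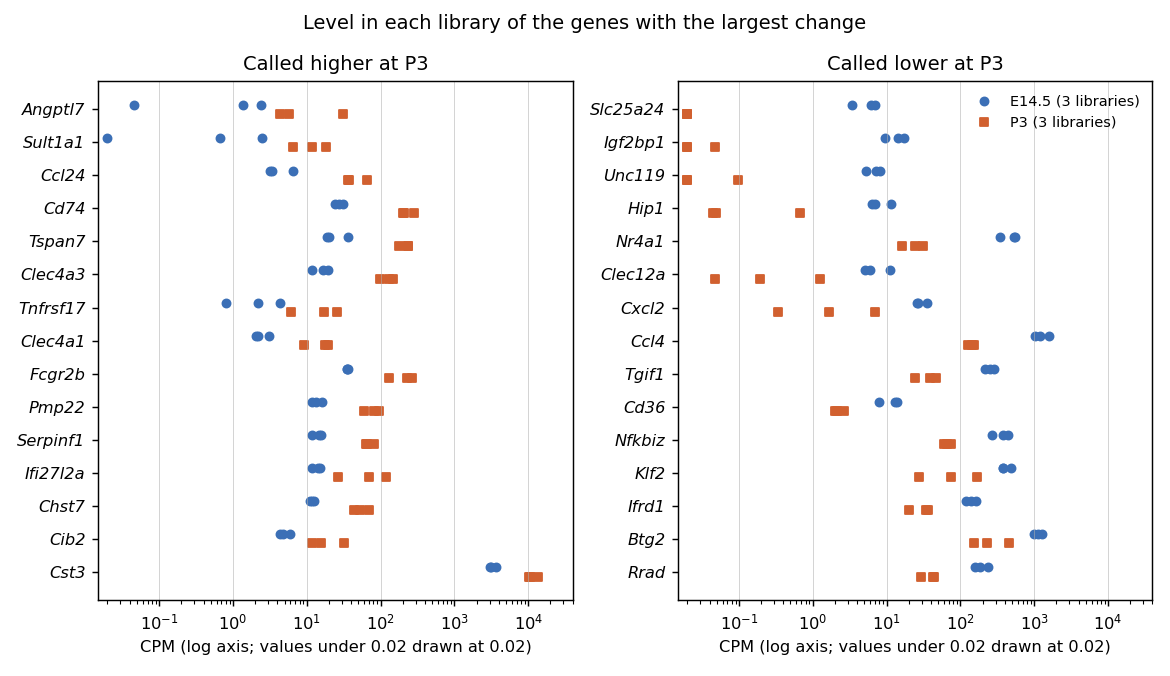
CPM (log axis, values under 0.02 drawn at 0.02) of the 15 genes with the largest increase (left) and decrease (right); blue circles are E14.5 libraries and orange squares P3 libraries, 3 of each. The 2 ages do not overlap for any of these 30 genes, as the naming rule required, and the P3 points of Angptl7, Hip1 and Cxcl2 are spread widely.

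Early response genes were lower at P3. Of 35 genes on the immediate early and dissociation list, 7 were lower and 1 higher, where 0.264% and 0.82% of all tested were. The median log2 fold change was -1.36, and 22 were lower without overlap, where 11.2% of all genes tested were. DESeq2 called 11 lower and 1 higher in the list, and limma 4 and 1. Nr4a1, an orphan nuclear receptor induced within minutes of stimulation, was at 350, 536 and 554 CPM at E14.5 and at 16.1, 24.2 and 31.1 CPM at P3. This was a log2 fold change of -4.53 (SE 0.84, adjusted p = 0.0018). The transcription factor Klf2 fell from 376 to 484 CPM to 27.9 to 168 CPM, and the antiproliferative gene Btg2 from 990 to 1262 CPM to 152 to 458 CPM. Atf3, Klf6, Rhob and Nr4a2 were the other lower members. Nr4a2 had 197 counts at E14.5 and 3 at P3, a ratio of 61.6 with a counting interval of 20.8 to 301. Zfp36l1, an RNA-binding decay factor, rose by 1.41. The uncalled member with the most reads was Egr1, at 1882 to 3017 CPM and 606 to 1975 CPM.

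These genes are also known to respond to tissue dissociation. The summed level of the 35 genes was 11790, 13060 and 15180 CPM at E14.5 and 3787, 5547 and 8353 CPM at P3. In mMΦ the same sum was 22800, 22590 and 22300 CPM at E14.5 and 3207, 3380 and 12220 CPM at P3. Any difference in handling between the ages cannot be told apart from age, and its part was not tested. With the list left out of the table, 194 genes were called, a setting chosen after seeing the data, as was leaving out the mitochondrial genes (183 calls). The number of lower members was 6, 6 and 3 without E14.5 replicate 1, 2 or 3, and 5, 5 and 4 without P3 replicate 2, 3 or 4. The Btg2 call was lost in all 6 such fits (adjusted p 0.0695 to 0.241), the Klf2 call without E14.5 replicate 3, P3 replicate 2 or P3 replicate 3, and the Nr4a2 call without E14.5 replicate 3, P3 replicate 3 or P3 replicate 4. Nr4a1 stayed called in all 6.

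Chemokine genes went both ways. Of 31 chemokine and cytokine genes tested, 3 were higher and 3 lower, with a median of 0.35. Over all genes tested, 0.82% were called higher and 0.264% lower. DESeq2 called 5 higher and 7 lower in the list, and limma 4 and 4. Ccl4, an inflammatory chemokine, was at 1039, 1195 and 1599 CPM at E14.5 and at 144, 154 and 126 CPM at P3, without overlap. Its log2 fold change was -3.09 (SE 0.63, adjusted p = 0.0044). Its neighbour in function Ccl3 fell by 2.22, from 862 to 1238 CPM to 151 to 270 CPM, and the neutrophil attractant Cxcl2 by 3.27. The cytokine genes Il1a and Tnf did not pass the test, though their libraries did not overlap. Il1a was at 335 to 526 CPM and 31.1 to 111 CPM, and Tnf at 200 to 273 CPM and 32.0 to 52.5 CPM. Nfkbiz, an inducible NF-kappaB cofactor, fell by 2.63.

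The higher chemokines were of other kinds. Ccl24, an eosinophil attractant, was at 6.54, 3.19 and 3.35 CPM at E14.5 and 65.1, 36.4 and 37.8 CPM at P3, a log2 fold change of 3.57 (SE 0.71, adjusted p = 0.0035). Ccl6 and Ccl9, rodent CC chemokines, rose by 1.33 and 1.06. The lipopolysaccharide receptor components Cd14 and Ly96 rose by 1.21 and 1.42, and with Nfkbiz they were edgeR's calls among 32 genes of Toll-like receptor signalling, where DESeq2 called 2 higher and 1 lower and limma 0. Calls of Ccl3 were lost without E14.5 replicate 3, P3 replicate 2 or P3 replicate 4 (adjusted p up to 0.0942), of Ccl24 without E14.5 replicate 2 or 3 (up to 0.0542), of Ly96 without P3 replicate 4 (0.0642), of Nfkbiz without E14.5 replicate 2 or 3 or P3 replicate 2 or 4 (up to 0.134), and of Cd14 without E14.5 replicate 1 or 3 or P3 replicate 3 or 4 (up to 0.106). The higher chemokine calls numbered 1 without E14.5 replicate 2 or 3, and the lower ones 1 without E14.5 replicate 3 or P3 replicate 4. Cxcl2 was called only without P3 replicate 2, where its log2 fold change was -4.84. Like the early response genes, the inflammatory chemokines are known to react to handling, and that was not tested.

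Part of the glycolytic genes was lower at P3. Of 25 tested, 3 were lower and none higher, and the median log2 fold change was -0.77. Over all genes tested, 0.264% were called lower and 0.82% higher. DESeq2 called 6 lower in the list, and limma 8 lower and 1 higher. Without overlap, 14 were lower, where 11.2% of all genes tested were. Ldha, which makes lactate from pyruvate, was at 1375, 1232 and 1101 CPM at E14.5 and at 396, 609 and 441 CPM at P3. This was a log2 fold change of -1.26 (SE 0.18, adjusted p = 2.8e-05). Pkm, pyruvate kinase, went from 892, 888 and 857 CPM to 378, 567 and 433 CPM, and Aldoa, aldolase, from 769, 741 and 751 CPM to 377, 414 and 318 CPM. Tpi1 narrowly missed the threshold (log2 fold change -0.80, adjusted p = 0.077). Ldhb, the subunit that favours the reverse reaction, was at 215 to 301 CPM and 400 to 409 CPM, and did not pass the test (0.91, adjusted p = 0.58). Several glycolytic genes have processed pseudogenes, so their counts are uncertain where reads could be shared. The Pkm call was lost without E14.5 replicate 2, P3 replicate 2 or P3 replicate 4 (adjusted p up to 0.133).

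Other parts of energy metabolism gave no call. None of 35 oxidative phosphorylation genes, 19 hypoxia response genes or 23 cholesterol synthesis genes passed edgeR's test, with medians of 0.24, -0.32 and -0.53. At an unadjusted p under 0.05 they numbered 4, 1 and 2, where 1500 of all 17064 genes tested passed. DESeq2 called 0 in each, and limma 1, 0 and 0. The Ldha promoter is shown because the gene had the smallest adjusted p of the lower genes outside the transcription factor Tgif1, and because the hypoxia-inducible factors bind a core of ACGTG. All 3 called glycolytic genes had this core in a RefSeq window, where 21.8% of all genes with a window did. This core is contained in the TCACGTG searched above. Hif1a, which encodes the oxygen-regulated subunit, was at 158 to 192 CPM and 87.6 to 131 CPM and did not pass the test. Of the 2 windows of Ldha, the one with the most matches is shown. It lies on the plus strand at chr7:46845554-46845853, and capitals mark its 3 stretches.
Ldha: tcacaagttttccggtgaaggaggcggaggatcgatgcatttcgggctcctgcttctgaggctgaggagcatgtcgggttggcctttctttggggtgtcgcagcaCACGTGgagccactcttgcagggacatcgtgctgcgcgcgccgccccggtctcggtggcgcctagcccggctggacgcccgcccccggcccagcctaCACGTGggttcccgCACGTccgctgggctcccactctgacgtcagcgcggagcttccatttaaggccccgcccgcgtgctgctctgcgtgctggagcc

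Cell cycle genes were lower in level but not called. Of 40 S phase genes and 40 mitosis genes, none passed edgeR's test, and the medians were -0.79 and -0.69. Lower without overlap were 26 and 25, where 11.2% of all genes tested were. At an unadjusted p under 0.05 there were 1 and 0, where 1500 of all 17064 genes tested passed. DESeq2 called none and limma called 2 and 1 lower. The summed level of the S phase genes was 3596, 3639 and 3949 CPM at E14.5 and 1980, 2849 and 1881 CPM at P3. That of the mitosis genes was 3876, 3993 and 4100 CPM and then 2571, 2744 and 1658 CPM. For both sums the ages did not overlap, and P3 replicate 3 lay nearest to E14.5. Mcm6, of the replicative helicase, was at 339 to 383 CPM and 125 to 263 CPM (log2 fold change -0.99, SE 1.09). The proliferation marker Mki67 was at 79.9 to 92.1 CPM and at 195, 60.2 and 24.9 CPM, so that 1 P3 library lay above and 2 below every E14.5 library. Top2a was at 264 to 310 CPM and 66.3 to 187 CPM, with a standard error of 1.16.

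**Figure D4:**
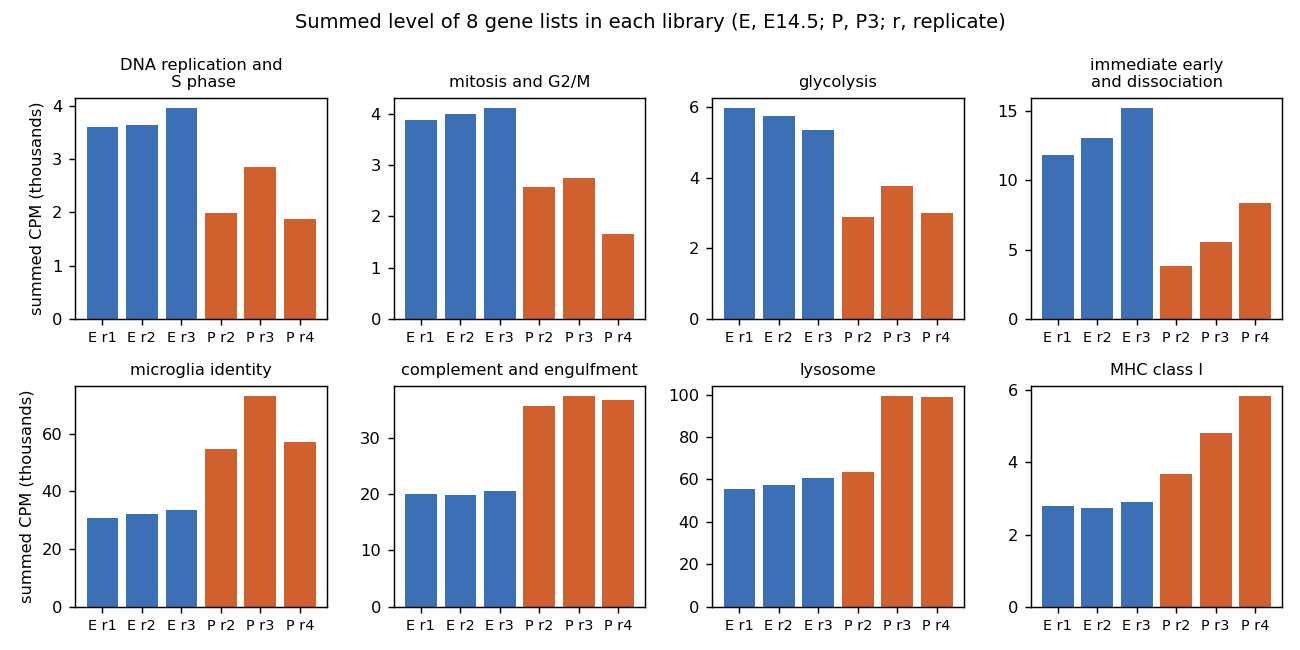
Summed CPM (vertical axes) of 8 gene lists in each of the 6 libraries (bars; blue E14.5, orange P3). All P3 bars are lower for S phase, mitosis, glycolysis and early response genes and higher for the other 4 lists, and the lysosomal sum of P3 replicate 2 (63320 CPM) lies near the E14.5 range of 55500 to 60630 CPM.

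The largest decreases were in genes that were near absent at P3. Igf2bp1, a fetal RNA-binding protein that stabilises growth-related transcripts and a known target of the let-7 microRNAs, was at 9.53, 17.2 and 14.4 CPM at E14.5 and at 0.048, 0 and 0 CPM at P3. These were 933 counts against 1, a ratio of 876 with a 95% counting interval of 157 to 34600. Slc25a24, a mitochondrial ATP carrier, had 381 counts at E14.5 and 0 at P3, at least 119-fold lower against a floor of 3 counts over the group. The adaptor Unc119 had 470 counts and 2, a ratio of 221 (60.7 to 1830). Hip1, a clathrin adaptor, went from 6.35 to 11.6 CPM to 0.672, 0.0447 and 0.0483 CPM, and the inhibitory lectin Clec12a from 5.03 to 11 CPM to 0.048, 1.25 and 0.193 CPM.

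The counting intervals of these low genes cover counting error only. The Slc25a24 call was lost in all 6 leave-one-out fits (adjusted p 0.0634 to 0.273), the Igf2bp1 call without P3 replicate 3 or 4 (up to 0.075), and the Unc119 and Hip1 calls in 5 of 6 each, with Unc119 called only without E14.5 replicate 1 and Hip1 only without P3 replicate 2. Clec12a was called in all 6, with a log2 fold change from -6.04 without P3 replicate 3 to -3.28. By edgeR, Igf2bp1 was the only call among 21 let-7 regulated and fetal growth genes, whose median was -0.88, and DESeq2 and limma each called 2 higher and 1 lower. Its relative Igf2bp3 was at 111 to 120 CPM and 70.8 to 87.8 CPM without a call, and Lin28b, which blocks let-7, at 0.409 to 8.33 CPM and 0.536 to 7.06 CPM.

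Genes with many reads outside the lists also changed. Itm2b, an integral membrane protein, was at 3289 to 3683 CPM and 5766 to 7617 CPM, a log2 fold change of 1.14 (SE 0.13, adjusted p = 4.5e-07). Serinc3, a membrane protein of the serine incorporator family, rose by 0.71. Eif4g2, a translation initiation factor, fell by 1.14, and Ifrd1 and the small GTPase gene Rrad by 2.41 and 2.39. Calls were lost for Serinc3 without E14.5 replicate 1 or 2 or P3 replicate 3, for Eif4g2 without E14.5 replicate 2 or 3 or P3 replicate 2 or 4, for Ifrd1 without P3 replicate 2 or 4, and for Rrad without each library other than E14.5 replicate 1. Their adjusted p went up to 0.185, 0.287, 0.0833 and 0.159.

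Transcription factors of microglia gave 2 higher and 2 lower calls of 30 tested, with a median of -0.20. Over all genes tested, 0.82% were called higher and 0.264% lower. The macrophage factor Maf rose by 0.92, with P3 replicate 2 at 627 CPM and the other P3 libraries at 299 and 335 CPM. Cebpb, a factor of inflammatory gene induction, fell from 255 to 289 CPM to 49.6 to 105 CPM, a log2 fold change of -1.71 (adjusted p = 0.0022), and Nr4a1 is the other. Tgif1, a repressor in TGF-beta signalling that was in the largest-change group, fell from 218, 254 and 287 CPM to 24, 46.6 and 38.7 CPM. Its log2 fold change was -2.93 (SE 0.32, adjusted p = 1.6e-07). Mef2c was at 468 to 544 CPM and 630 to 881 CPM and Irf8 at 416 to 434 CPM and 382 to 602 CPM, both without a call. The Maf call held only without P3 replicate 3 (adjusted p up to 0.486). None of 26 TGF-beta signalling genes was called by edgeR (4 at an unadjusted p under 0.05), while DESeq2 and limma called 1 each. Of all 17064 genes tested, 1500 had an unadjusted p under 0.05.

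Border macrophage genes were mostly without a call in these microglia. Of 30 tested, 4 were higher (Mrc1, Maf, Ccl24 and Igfbp4) and 2 lower (Timd4 and Bmp2). The fitted median was 0.06. Over all genes tested, 0.82% were called higher and 0.264% lower. DESeq2 called 4 higher and 3 lower in the list, and limma 2 and 0. Mrc1 was at 76.4, 91.1 and 133 CPM at E14.5 and at 316, 310 and 301 CPM at P3, a log2 fold change of 1.61 (SE 0.37, adjusted p = 0.014). Its call was lost without E14.5 replicate 1 or 2 or P3 replicate 2 (up to 0.129). The other 5 defining genes of border macrophages had no call. Ms4a7 was at 16.6 to 16.8 CPM at E14.5 and at 4.27, 0.357 and 15.4 CPM at P3. F13a1 was at 3.59 to 17.3 CPM and 0.402 to 1.40 CPM, and Cd163 at 0.318 to 0.666 CPM and 0.048 to 0.242 CPM. Pf4 was at 4.75 to 7.22 CPM and at 0.96, 1.88 and 17.1 CPM, so that its high P3 library was replicate 4, of the batch S276. Pf4 had a log2 fold change of 0.24 without a call, and of -2.08 within the batch S232 and without P3 replicate 4 (adjusted p = 0.0152 and 0.0171). Bmp2 had 44 counts at E14.5 and 1 at P3, a ratio of 41.3 (7.04 to 1670). It was at 0.0908, 0.238 and 1.48 CPM at E14.5, highest in replicate 3, and the call was lost without E14.5 replicate 3, P3 replicate 3 or P3 replicate 4 (adjusted p up to 0.675). The higher calls numbered 1, 0 and 2 without E14.5 replicate 1, 2 or 3, and 2, 3 and 2 without P3 replicate 2, 3 or 4.

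Genes linked to early postnatal white matter and lipid-associated microglia gave 5 higher (Trem2, Cd68, Ctsl, Cd63 and Pld3) and 3 lower calls (Ccl3, Ccl4 and Cd36) of 30, with a median of 0.02. Over all genes tested, 0.82% were called higher and 0.264% lower. Without P3 replicate 4, 3 list members were higher, and 1 was lower without E14.5 replicate 3, P3 replicate 2 or P3 replicate 4. The state's best known markers were not called. Spp1, osteopontin, was at 1721, 898 and 807 CPM and then at 583, 2263 and 645 CPM, with overlap. Itgax was at 14.6 to 19.7 CPM and 16 to 51.8 CPM. Apoe, the main lipid carrier of the brain, was at 8285, 7171 and 7382 CPM and at 14241, 15301 and 16390 CPM without overlap, but did not pass the test (log2 fold change 1.44, SE 0.46, adjusted p = 0.18).

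Among the remaining lists, calls were few. Trf, transferrin, was at 576, 630 and 644 CPM and then 1036, 1615 and 1272 CPM (log2 fold change 1.17, SE 0.14, adjusted p = 5.9e-07). Blvrb, which reduces biliverdin, rose by 1.39, and Nfe2l2, the regulator of antioxidant genes, fell by 1.18, which made 2 higher and 1 lower of 18 iron and haem genes by edgeR, where DESeq2 called 2 higher and 3 lower and limma 1 lower. Orai1, the pore of store-operated calcium entry, rose by 1.05 as edgeR's single call of 25 channel genes, and Timp2, a metalloproteinase inhibitor, by 0.73 as its single call of 31 matrix and protease genes. DESeq2 called 4 and limma 3 channel genes higher, and DESeq2 2 matrix genes higher and 1 lower where limma called 2 higher. By edgeR, P2ry13 was the call of 14 purinergic genes, where DESeq2 called 1 higher and 2 lower and limma 2 higher and 1 lower. Of 23 cholesterol efflux genes edgeR called Npc2 higher and Cd36 lower, DESeq2 2 higher and 2 lower, and limma 4 higher and 1 lower. None of 17 solute carrier genes was called by edgeR (2 at an unadjusted p under 0.05), DESeq2 called 1 and limma 2. Of all 17064 genes tested, 1500 had an unadjusted p under 0.05. The Nfe2l2 call was lost without E14.5 replicate 2 or 3 or P3 replicate 2 or 4 (adjusted p up to 0.115) and the Blvrb call without P3 replicate 4 (0.0658).

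RNA of other cells was low at both ages and, apart from Cd79b, none of those genes was called by edgeR. At an unadjusted p under 0.05, 8 of 12 erythroid and 6 of 16 endothelial markers were lower. Of all 17064 genes tested, 1500 passed that limit in either direction. DESeq2 called 3 erythroid, 1 endothelial, 1 choroid plexus, 1 fibroblast and 1 astrocyte marker lower, and 2 fibroblast, 1 astrocyte and 1 oligodendrocyte marker higher. Limma called 2 endothelial markers lower and 1 astrocyte marker higher. The summed neuronal markers were 14.8 to 44.7 CPM at E14.5 and 25.4 to 90.4 CPM at P3, highest in P3 replicate 2. Fibroblast markers summed to 9.67 to 11.1 CPM and to 35.2, 9.33 and 8.89 CPM, with Dcn at 0 in every E14.5 library and 15.7 CPM in P3 replicate 2. Erythroid markers summed to 22.7 to 107 CPM and 28.4 to 73.1 CPM, with the globin gene Hbb-bs at 1.14 to 50.1 CPM and 0 to 0.72 CPM. Progenitor markers summed to 185 to 207 CPM and 41.5 to 137 CPM, with Nes at 125 to 130 CPM and 17.9 to 65.98 CPM, Vim at 40.4 to 52.0 CPM and 11.3 to 23.96 CPM, Fabp7 at 2.40 to 5.36 CPM and 4.35 to 39.2 CPM, Sox2 at most at 0.619 CPM and Pax6 at most at 0.192 CPM in every library. Endothelial markers summed to 155 to 227 CPM and 75.0 to 120 CPM, mostly from the glucose transporter Slc2a1, with Cldn5 at most at 1.28 CPM. Astrocyte, oligodendrocyte, monocyte and neutrophil markers summed to 12.7 to 162 CPM at both ages, and mural, choroid plexus and mast cell markers to at most 5.12 CPM. The part of these cells in the results was not tested. The lymphocyte sum of 713 to 998 CPM rested on Ighm and Cd79b, and without them it was 0.454 to 3.27 CPM, with Cd3e at 0 in all 6. Cd79b rose from 77.7 to 92.8 CPM to 180 to 245 CPM, a call lost without each E14.5 library and without P3 replicate 4 (adjusted p up to 0.152).

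The later ages show where these genes stood after P3, as a description of libraries outside the comparison (3 at P10, 5 at P21 and 5 at P56). Of 21 higher genes followed, 17 had a mean beyond the P3 mean at P10 and 16 at P56. Of 17 lower genes, 5 had a lower mean at P10 than at P3 and 6 at P56. Slc25a24 was at 0 CPM at P3 and could go no lower. Igf2bp1, Unc119 and Hip1 had P3 means of 0.016, 0.032 and 0.255 CPM, with little room below. All followed genes were called for their change from E14.5 to P3, so these counts are no test of what came after. Cst3 had a median of 26850 CPM at P10 and 82180 CPM at P56, and Fcgr2b of 413 and 634 CPM. Pmp22 was at 190 to 246 CPM at P10 and 615 to 778 CPM at P56. Cd74 did not follow them, with 182 to 221 CPM at P10 and 7.76 to 55.5 CPM at P56. Mrc1 was at 324 to 370 CPM at P10, 14.9 to 45.4 CPM at P21 and 1.66 to 13.6 CPM at P56. Among the lower genes, Ldha went on to 291 to 338 CPM at P10 and 219 to 311 CPM at P56, while Nr4a1 stood at 92.8 to 149 CPM at P10, above each P3 library. Igf2bp1 stayed at or under 0.848 CPM in all 13 later libraries.

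**Figure D5:**
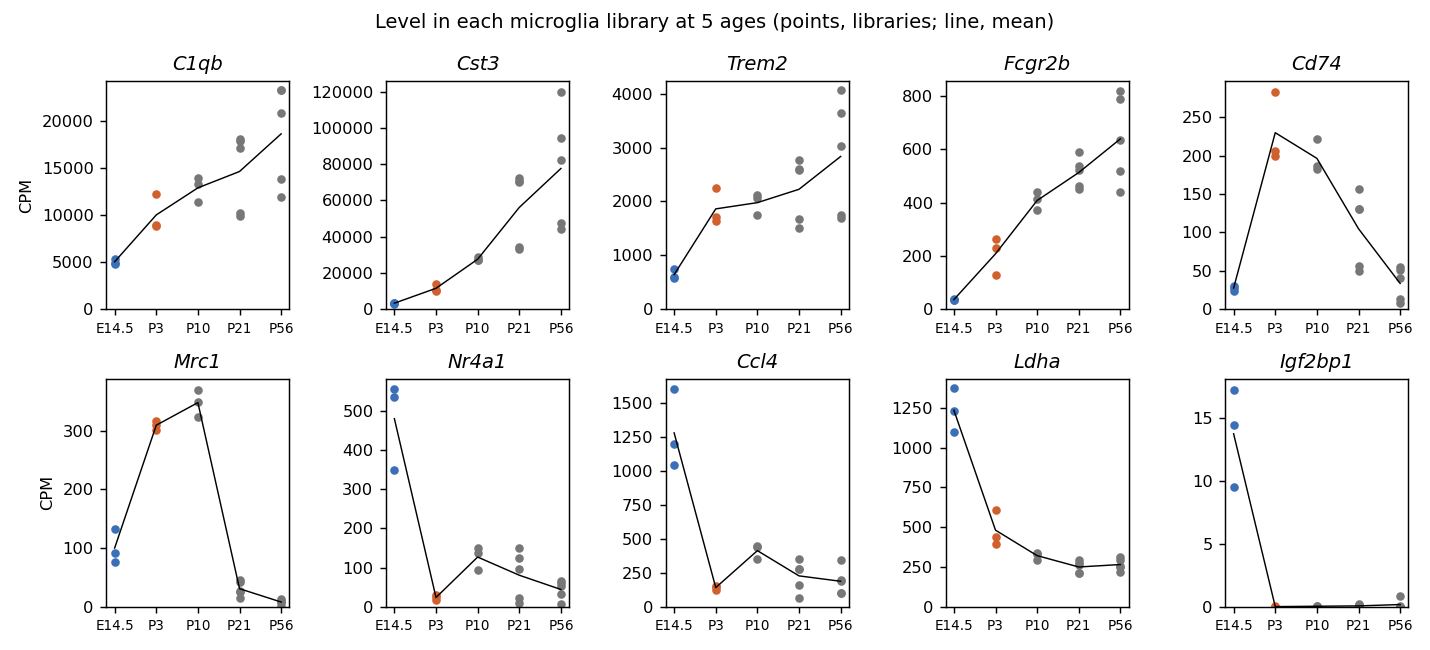
CPM (vertical axes, linear) of 10 genes in each microglia library at 5 ages (horizontal axes; points are libraries, lines join means; blue E14.5, orange P3, grey later). C1qb, Cst3, Trem2 and Fcgr2b have a higher mean at each later age, Cd74 and Mrc1 peak at P3 or P10, and Igf2bp1 is near 0 from P3 on.

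The same interval was covered by mMΦ, with 3 libraries per age and none shared with the microglia. In the test of the difference between the 2 steps, 12 of 17064 genes were called (0.0703%). The scavenger receptor Cd163 was at 68.2 to 74.0 CPM in E14.5 mMΦ and 865 to 977 CPM in P3 mMΦ, and at most at 0.666 CPM in all 6 microglia libraries. The difference of steps was -5.91 on the log2 scale (SE 0.78, adjusted p = 1.3e-04). The lectin Cd209f and the gelatinase Mmp9 had differences of -6.71 and -7.13 of the same kind. In all 6 microglia libraries they were at most at 0.286 and 0.809 CPM. The microglia steps of Cd163, Cd209f and Mmp9 were not called, and so near 0 CPM the size of their differences is uncertain. Clec4a3 was higher at P3 in both populations, with the larger step in microglia: mMΦ were at 115 to 134 CPM and then 225 to 273 CPM, and the difference was 2.11. Clec12a was at 24.6 to 32.4 CPM and 29.6 to 58.5 CPM in mMΦ, and the difference was -4.50. Cd40, a costimulatory receptor, had 65 counts in E14.5 microglia and 0 at P3, at least 20.3-fold lower, and 10.9 to 23.7 CPM in P3 mMΦ. The heavy chain gene Ighm stayed at 635 to 753 CPM in microglia and was at 396 to 480 CPM and 13.9 to 97.3 CPM in mMΦ. By Y-linked RNA, all 3 P3 libraries of mMΦ were of male type, unlike those of microglia, which was not tested. The number called was 5 without E14.5 microglia replicate 2, 4 without P3 microglia replicate 3, 7, 5 and 6 without mMΦ E14.5 replicate 1, 2 or 3, and 7 and 6 without mMΦ P3 replicate 1 or 2. Without E14.5 microglia replicate 2, P3 microglia replicate 3 or mMΦ E14.5 replicate 2, no gene with a positive difference was called, so the calls of Clec4a3 and Ighm were lost there. Several other refits kept only part of the positive calls.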

How the data were processed

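Messenger RNA was profiled in sorted microglia of 6 mouse libraries, within a series of 45. The authors deposited 1 table of read counts for 53546 gene symbols, taken as raw since its values are whole numbers. The submitters' processing notes name bcl2fastq 2.18, STAR 2.7.8a and featureCounts 2.0.2. The build, the annotation and the strand option are stated in none of the sources used here. The library kit, per the labels' protocols, keeps no strand, so overlapping genes cannot be told apart, and near-identical copies may share reads.

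Counts were fitted with edgeR 4.0.16 (glmQLFit with robust estimation, TMM scaling, R 4.3.3) over all 45 libraries, with 1 coefficient per population and age and a term for the batch S276 (7 libraries). filterByExpr (minimum count 10, minimum total 15) left 17064 genes. Calls used a Benjamini-Hochberg adjusted p under 0.05 over all of them. CPM values are TMM-scaled and not adjusted for the batch, so a fitted log2 fold change can differ from the ratio of mean CPM. With 3 libraries against 3, an exact permutation test cannot go below 0.1, so sums over lists carry no test. A fold against 0 counts used a floor of 3 counts over the group, and intervals are exact at 95%.

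Genes named are the 15 largest called changes in each direction at 5 CPM or more without overlap, the 8 such genes with the most reads in each direction, up to 4 called and 2 uncalled members of each of 40 lists, 20 followed genes and up to 6 genes in each direction for the difference of steps. Other called list members were named after their values were seen. The comparison, members and lists were chosen with earlier results of these data known. Alternatives used DESeq2 1.42.0, limma 3.58.1, other scalings, filters, batch terms and sample sets, and leaving out each library. The shared replicate numbers were not taken as pairs, because mice differ between ages and deviations of same-numbered libraries correlated at -0.12 and 0.14. No 2 libraries held the same values. Promoter windows came from RefSeq (GRCm38.p6), and C1qa and a few others had none. A few named genes are not reported here.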

Additional observations from a re-analysis of the deposited data

Results flagged for a closer look

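The step from E14.5 to P3 differed between microglia and mMΦ by the test of the difference itself for 9 named genes. On the log2 scale, the microglia step minus the mMΦ step was 4.36 for the stress gene Gadd45g, 2.82 for Ighm and 2.11 for Clec4a3. These 3 calls were all lost without E14.5 microglia replicate 2, P3 microglia replicate 3 or mMΦ E14.5 replicate 2. Nor did all 3 stay in other fits. Positive differences were 11.1% of 9 calls without E14.5 microglia replicate 3, and 16.7% of 12 without E14.5 microglia replicate 1 or P3 microglia replicate 4. They were 14.3% of 7 calls without mMΦ E14.5 replicate 1 or mMΦ P3 replicate 1. Without mMΦ E14.5 replicate 3 or mMΦ P3 replicate 2 they were 16.7% of 6. The difference was -10.1 for Cd40, -7.76 for Ifi203, -7.13 for Mmp9, -6.71 for Cd209f, -5.91 for Cd163 and -4.50 for Clec12a. Gadd45g was at 1.19 to 7.63 CPM in E14.5 microglia and 16.6 to 28.1 CPM at P3, and at 4.48 to 7.38 CPM and 0.377 to 2.26 CPM in mMΦ. Ifi203 and Cd40 had no count in P3 microglia, so their fitted differences are no measure of size. Mmp9, Cd209f and Cd163 were at or under 0.809, 0.286 and 0.666 CPM in every microglia library. The size of their differences is therefore uncertain as well. Ighm differed through mMΦ, where P3 libraries were at 13.9 to 97.3 CPM.

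In 5 of 76 sets of values examined, 1 library stood far from the others. Each set held 1 gene in the 5 microglia libraries of P21 or of P56. The limit used gives about 1 in 20 for independent, normally spread values. The genes shared their libraries and several lay near 0 CPM, so no comparison with chance is drawn. All 5 were microglia at P56. Angptl7 was at 52.8 CPM in replicate 1, Clec4a1 at 29.5 CPM in replicate 3, Igf2bp1 at 0.848 CPM in replicate 2, Unc119 at 0.743 CPM in replicate 5 and Clec12a at 0.457 CPM in replicate 5.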

How the results depend on the processing

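The 185 called genes (140 higher, 45 lower at P3) and the 12 genes of the difference of steps moved with the settings as follows. No low-count filter gave 107 calls (80 higher, 27 lower). The DESeq2 Wald test gave 633 (399 and 234) and 277 for the difference of steps, and limma with quality weights 421 (250 and 171) and 90. No batch term gave 123 (90 higher) and the batch S232 alone 114 (81 higher). The 6 compared libraries alone gave 131 (78 higher, 53 lower), with 77 of the 185 calls among them. Microglia libraries alone gave 147 (27 lower), and the 4 groups alone 43 for the difference of steps. Leaving out 3 later libraries that stand apart, a setting chosen after seeing the data, gave 286 (215 and 71). Leaving out each library gave 90 to 213 calls, 69 to 169 higher, 18 to 44 lower, and 4 to 12 for the difference of steps. Higher genes made up 75.7% of calls, 59.4% with limma, 63% with DESeq2's test and 59.5% with the 6 libraries alone. The median of all genes moved by -0.142 with limma and by 0.114 within S232. Pf4 reversed from 0.24 to -2.08 within S232, and leaving out single libraries put it between -2.08 (without P3 replicate 4) and 1.04 (without P3 replicate 2). The causes of the other moves were not tested.

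With the replicate number as a block in place of the batch term, 174 genes were called (127 higher, 47 lower) and 12 for the difference of steps. The numbers do not pair the libraries, and replicate numbers 4 and 5 fall in S276 alone, so the block and the batch term could not be fitted together. DESeq2 size factors gave 211, a log2 fold change of at least 1 gave 142, and without mitochondrial genes 183 were called. Of 74 named called genes, 34 stayed called in all 6 leave-one-out fits, among them the 3 C1q genes, Trem2, Fcgr2b, Cst3, Cd68, Ldha and Tgif1. Depth (17308547 to 21254533 reads) limits genes near 0 counts. With the spread at P3, an uncalled gene is not shown to be unchanged.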
